A study of Mus musculus with 15 samples.

Results

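The response of primary mouse astrocytes to lipopolysaccharide (LPS) was measured by RNA sequencing in 5 libraries of treated and 5 of untreated cells, across all 15362 genes with enough counts for a test. The libraries were chosen by their titles, SCI1 to SCI5 and control1 to control5, and they are 10 of the 15 in the series. Per the labels the cells were primary astrocytes of mouse brain, and the LPS group (SCI in the titles) was given LPS at 1 µg/mL over 6 to 8 h, without Rg1. The control group received neither agent. The other 5 libraries had ginsenoside Rg1 before the same LPS. They entered the fit through the choice of genes tested, the scaling and the estimate of spread. Total counts were 34.35 to 39.04 M (megacounts) in control and 34.20 to 41.76 M in LPS. The labels give no strain, sex or age, no hour of LPS for a single library, and do not say whether each library is a culture or animal of its own. P-values therefore measure the spread between these samples, which may be technical.

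LPS is a lipid of the outer membrane of Gram-negative bacteria. It is bound by CD14 and MD-2 and signals through the receptor TLR4. The adaptor MyD88 leads to the kinases IRAK and TAK1, to the IKK complex and to release of NF-kB from its inhibitors, and the adaptor TRIF leads to the kinase TBK1, to IRF3 and to interferon beta. Astrocytes are glial cells that take up glutamate and potassium, contact blood vessels and, when exposed to inflammatory signals, become reactive and release cytokines and chemokines. Resident microglia respond strongly to LPS and often persist in primary astrocyte cultures.

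By edgeR's quasi-likelihood test with Benjamini-Hochberg adjustment, 3635 genes (23.7% of those tested) changed at adjusted p under 0.05, 2127 (13.8%) higher and 1508 (9.82%) lower in LPS. The counts of list members given below are to be read beside these shares of all genes tested. Most changes were small. Of the genes that rose 77.9% did so by less than 2-fold, and of those that fell 80.6%. The large changes were mostly rises: 97 genes (0.631% of those tested) rose at least 8-fold and 14 fell as much, and at 32-fold or more the numbers were 45 and 2. The 97 genes took 0.0964 ± 0.0073% of all counts in control and 1.72 ± 0.19% in LPS (mean ± SD, n = 5). All genes that rose together took 11.9 ± 0.27% in control and 18.1 ± 0.23% in LPS, and those that fell took 14.7 ± 0.41% and 10.7 ± 0.73%. Of the changed genes 58.5% were higher with TMM factors and 45.9% when libraries were scaled by their totals alone. The median log2 fold change over all genes tested was -0.0029 with TMM factors and -0.0468 with totals alone.

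**Figure D1:**
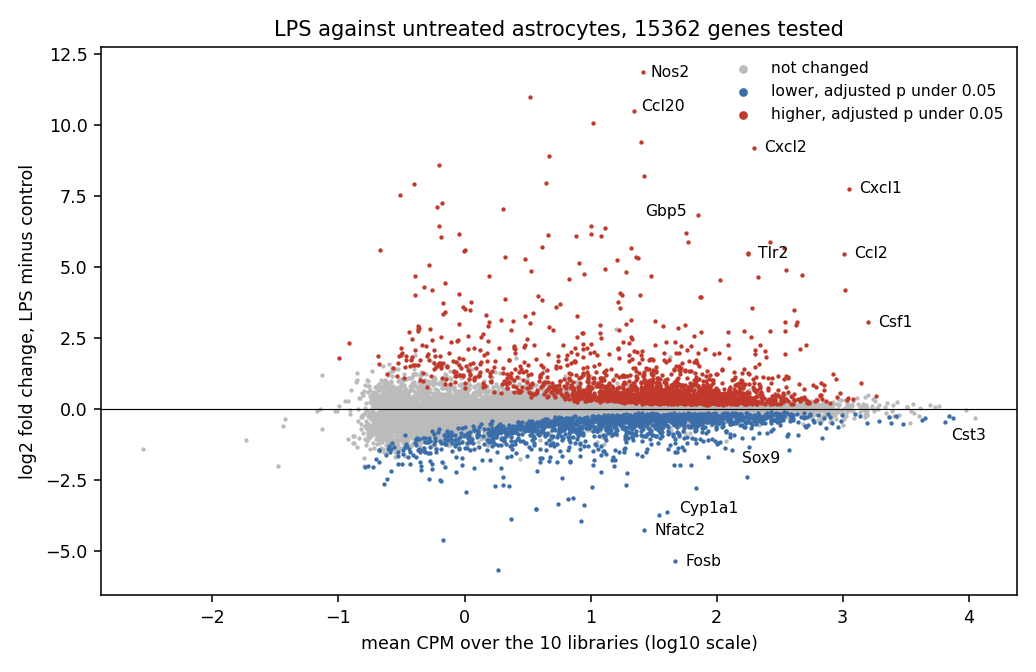
Each point is 1 of the 15362 genes tested, at its mean CPM over the 10 libraries (horizontal, log10 scale) and its log2 fold change of LPS minus control (vertical), red where higher and blue where lower at adjusted p under 0.05. The large changes were mostly upward: 97 genes rose at least 8-fold and 14 fell as much.

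The cultures held RNA of astrocytes and of other cells. Of 14 astrocyte markers all were tested, and their summed level was 11289 to 14181 CPM in control (CPM, the count scaled to a common library total after TMM adjustment). Markers of fibroblasts, meninges and pericytes summed to 7884 to 9062 CPM in control and 7598 to 11672 CPM in LPS. None of 11 tested changed in edgeR (1 higher at unadjusted p under 0.05, and 1 higher by DESeq2). Lymphocyte and neutrophil markers were at or near 0, with Ly6g and Mpo at 0 in all 10 libraries. Markers of microglia and macrophages were low, with sums of 138 to 256 CPM in control and 143 to 243 CPM in LPS. Of the 20 microglia markers 19 were tested and 1 rose, the mannose receptor gene Mrc1 (0.319 to 0.924 CPM). That count rests on control replicate 4, which had the highest microglia sum of all libraries, and without it 8 of the 19 rose.

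Some libraries of each group differed from the others. The 5 LPS libraries lay between 33.35 and 47.37 on the first principal component (53.92% of the variance) and the control libraries between -41.00 and -37.35. On the second (14.38%), LPS replicate 3 lay at 43.35 and LPS replicate 4 at -23.58, with the control libraries between -15.01 and 21.53. Microglia markers summed to 198 CPM in LPS replicate 2 and 243 CPM in LPS replicate 3, against 143 to 160.5 CPM in LPS replicates 1, 4 and 5. The astrocyte markers summed to 12739 CPM in LPS replicate 3, within the control range, to 9924 CPM in replicate 2 and to 7599.6 to 7808 CPM in replicates 1, 4 and 5. The libraries of highest microglia sum were thus also the LPS libraries of highest astrocyte sum. Fewer cells of a type and less RNA per cell cannot be told apart in bulk samples. Without LPS replicates 2 and 3, 4400 genes changed, and all 97 genes that had risen at least 8-fold were still called higher, 92 of them at least 8-fold.

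**Figure D2:**
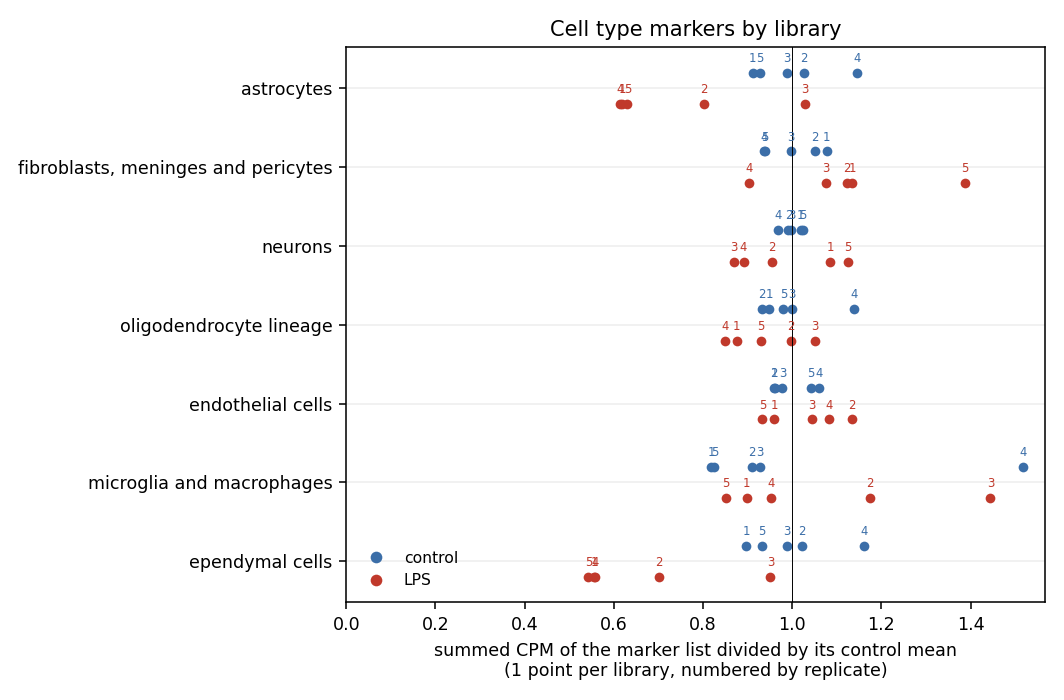
Summed CPM of 7 lists of cell type markers in each library, divided by the list's mean over the 5 control libraries (blue, control; red, LPS; numbers, replicates). LPS replicate 3 stood within the control range for astrocyte markers (12739 CPM in sum) while LPS replicates 1, 4 and 5 lay at 7599.6 to 7808 CPM, and microglia markers were highest in control replicate 4 and LPS replicate 3.

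The genes with the largest rises encode secreted inflammatory proteins and enzymes. Where the groups did not overlap and the mean reached 5 CPM, the 12 highest fold changes were those of Nos2, Ccl20, Csf2, Tnf, Cxcl2, Acod1, Cxcl1, Gbp5, Neurl3, Il6, Cxcl5 and Ccl3. Tnf, the gene of tumour necrosis factor, had 0.0258, 0.0271, 0.0267, 0.234 and 0.0561 CPM in control replicates 1 to 5 and 41.9, 54.6, 71.9, 39.6 and 41.3 CPM in LPS replicates 1 to 5 (log2 fold change 9.38 ± 0.44, SE; adjusted p = 2.64e-10). Cxcl2, a neutrophil attractant, stood at 0.542, 0.542, 0.962, 0.702 and 0.617 CPM and then at 427, 403, 380.0, 425 and 339 CPM (9.19 ± 0.52). Both genes were near 0 in every control library and high in every LPS library. Acod1, for the enzyme that makes itaconate in mitochondria, had 0.0542 to 0.347 CPM in control and 38.5 to 80.5 CPM in LPS. Neurl3, for an E3 ubiquitin ligase, had 0.14 to 0.41 and 14.3 to 25.4 CPM. Both were highest in LPS replicate 3. Separation from control in every LPS library was a condition for all 12 genes.

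**Figure D3:**
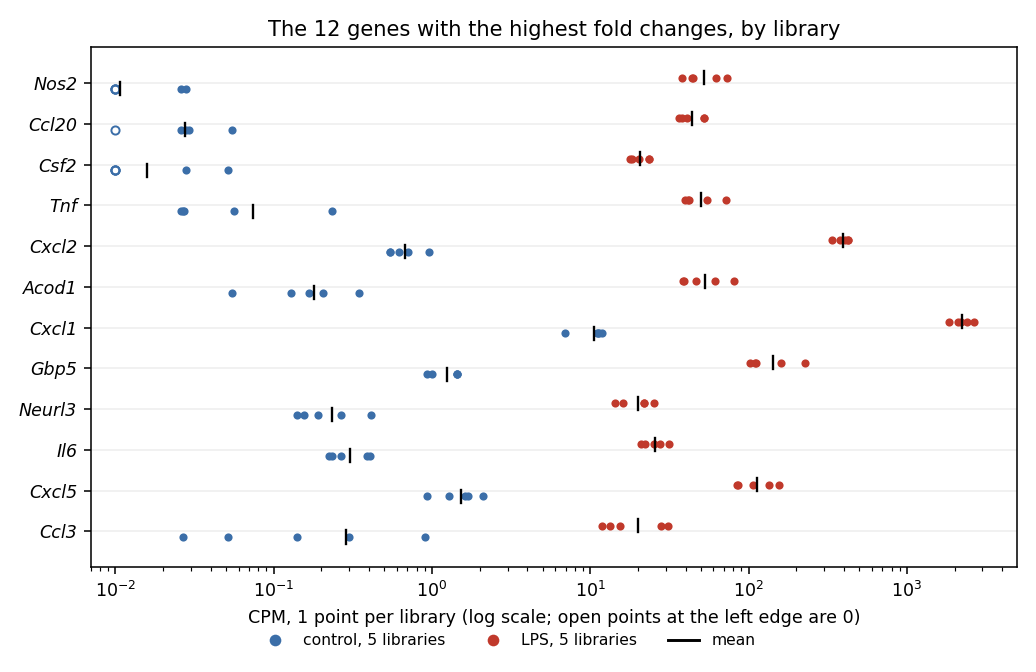
CPM of the 12 genes with the highest fold changes in each of 5 control (blue) and 5 LPS (red) libraries on a log scale, with the mean as a bar and values of 0 as open points at the left edge. The genes were picked from those whose groups do not overlap, and Cxcl1 and Cxcl2 reach the highest levels, with means of 2242 and 395 CPM.

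Some genes went from almost no counts to high counts. With at most 3 counts over the 5 control libraries and at least 50 over the 5 LPS libraries, 19 genes met this description, 18 of them seen in all 5 LPS libraries, while Rnf39 alone met the reverse with 61 counts in control and 1 in LPS. Nos2, for inducible nitric oxide synthase, had 2 control counts and between 1353 and 2364 counts in each LPS library. Csf2, for the myeloid growth factor GM-CSF, had 579 counts in the lowest LPS library and 941 in the highest, against 3 in all of control. The order of the LPS libraries differed between them: Csf2 was lowest in LPS replicate 3, in which Nos2 was highest. Cxcl3, for a further neutrophil attractant, had 0 control counts and 201 to 293 per LPS library, so it was at least 407-fold higher against a floor of 3 counts over the group. Il27, for a subunit of an immunoregulatory cytokine, had 0 and 224 counts, at least 75-fold. The next genes have a ratio of scaled counts and its exact 95% interval, for counting error only. Il12b, for the shared subunit of IL-12 and IL-23, had 1 and 230 counts (ratio 231, interval 41.1 to 9170), with 119 of the 230 in LPS replicate 3. Ifnb1, for interferon beta, had 2 and 224 counts (ratio 113, interval 30.8 to 935). Cd69, a lymphocyte and macrophage activation marker, had 3 and 230 counts (77.1, interval 26.0 to 376).

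Ranks on the per-length scale leave out the mitochondrially encoded genes. Among the other genes, 2 chemokine genes were in the 10 most abundant transcripts of the LPS libraries. Cxcl1 went from 10.9 FPKM (rank 4892) to 2262 FPKM (rank 8). Ccl2, for a monocyte attractant, went from 57.0 FPKM (rank 1247) to 2415 FPKM (rank 6). FPKM is the count divided by gene length and by the library's total. The ferritin heavy chain gene Fth1 ranked first in both groups (10122 and 9548 FPKM) and Cst3, for the protease inhibitor cystatin C, second (9379 and 6582 FPKM). The 10 changed genes with the largest rises in mean CPM were Csf1, Cxcl1, Ccl2, Icam1, Tnfaip2, Sqstm1, Rnd1, Rgs16, Nfkbia and Ptgs2, which together took 0.187% of counts in control and 1.43% in LPS. Csf1, for the growth factor that macrophages and microglia need, had 397, 324, 341, 298 and 369 CPM in control and 2973, 2899, 2822, 2398 and 3180.1 CPM in LPS, the largest rise in CPM of any changed gene. Sqstm1, for the autophagy receptor p62, rose by 0.88 on the log2 scale from a high level (976 ± 79.3 to 1802 ± 244 CPM). Rnd1, for an atypical small GTPase that loosens the actin skeleton, went from 68.5 ± 8.65 to 762 ± 128 CPM (3.48 ± 0.14). The largest falls in CPM were those of Cst3, Pea15a, Vim, CYTB, Apoe, Prdx6, Aldoc, Prnp, ND4 and Cpe. These are abundant transcripts that fell by 0.46 (Cst3) and 0.28 (Vim) on the log2 scale. The calls of Apoe and Pea15a were lost when any of 4 and of 7 libraries was left out (adjusted p of 0.0549 to 0.0642 and 0.0562 to 0.0924), control replicate 4 and LPS replicates 1, 4 and 5 in both.

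Chemokine genes rose in both families. Of 10 CXC chemokine genes tested 8 rose and 1 fell, with a median log2 fold change of 5.27, and of 12 CC chemokine genes 9 rose and none fell, with a median of 4.59, beside shares of 13.8% higher and 9.82% lower and a median of -0.0029 over all genes. The CXC list summed to 345 ± 33.6 CPM in control and 3780.3 ± 585 CPM in LPS, the CC list to 70.5 ± 7.03 and 2847 ± 316 CPM. Cxcl1 had 11.2, 11.9, 11.1, 6.94 and 11.3 CPM in control and 2207, 2397, 2658, 1840.1 and 2109 CPM in LPS. Cxcl5, a neutrophil attractant, went from 1.53 ± 0.443 to 113 ± 30.9 CPM (6.20 ± 0.33). Cxcl10, for an interferon-inducible attractant of T cells, went from 9.04 ± 3.2 to 523 ± 161 CPM (5.85 ± 0.31). Ccl20, the ligand of CCR6, had 5 counts in all of control and 8085 in LPS, 36.4 to 52.6 CPM per LPS library. Ccl7, for a further monocyte attractant, went from 13.3 ± 2.29 to 675 ± 91.1 CPM (5.66 ± 0.20), and Ccl2 from 46.2 ± 6.32 to 2019.9 ± 199.8 CPM (5.45 ± 0.19). All of these stood apart from the control range in every LPS library. The rule for the highest fold changes had required this of Cxcl1, Cxcl5 and Ccl20. Ccl3 and Ccl4, for chemokines that microglia make in quantity, were highest in LPS replicates 2 and 3: Ccl3 stood at 15.4, 28, 30.8, 13.3 and 11.9 CPM and Ccl4 at 10.6, 19.6, 26.6, 10.5 and 8.27 CPM in LPS replicates 1 to 5. In control replicate 4, whose microglia sum was the highest of all libraries, Ccl3 stood at 0.907 CPM. Ccl4 stood there at 0.263 CPM, near its control mean. The part of microglia in the levels of Ccl3 and Ccl4 was not tested. Over all 5 control libraries Ccl3 had 50 and Ccl4 had 40 counts. Ccl3 ran from 0.034 to 1.14 FPKM in control, highest in replicate 4. Cxcl14, a chemokine that astrocytes and epithelia make at rest, fell by 0.43 on the log2 scale (84.4 ± 10.8 to 62.8 ± 12.5 CPM, adjusted p = 0.0323), a call that was lost without control replicate 2, 3 or 4 or LPS replicate 1, 4 or 5 (adjusted p of 0.0566 to 0.0894).

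The promoters of the highest chemokine genes are shown because they match the kB motif, the 10-base element that NF-kB is known to bind, shortly before the start of transcription. The following stretches are from RefSeq on GRCm38.p6, 5′ to 3′ on the strand of the gene, and the capitals mark matches to the 10-base kB motif on either strand (an 11-base run can hold overlapping matches). Cxcl3 lies on the plus strand (chr5:90785998-90786078, the matches starting 73 and 72 bases before the start), as do Cxcl2 (chr5:90903772-90903852, 97 and 96 bases before) and Ccl20 (chr1:83116656-83116735, 80 bases before).
Cxcl3: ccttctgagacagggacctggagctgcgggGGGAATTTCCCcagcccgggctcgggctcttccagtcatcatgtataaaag
Cxcl2: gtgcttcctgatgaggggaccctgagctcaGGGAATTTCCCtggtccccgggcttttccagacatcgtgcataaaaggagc
Ccl20: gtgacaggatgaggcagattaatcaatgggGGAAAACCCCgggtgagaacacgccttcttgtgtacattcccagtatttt
Cxcl3 and Cxcl2 are neighbours and hold the same 11 capital letters. Promoters of 11949 tested genes were available, spanning 250 bases before to 50 bases after the start. A kB match was present in 12.5% of them, in 44.6% (29 of 65) for genes raised at least 8-fold, in 20.5% for genes raised 2-fold to 8-fold and in 15.2% for genes raised by less. Genes raised at least 8-fold also had a lower median GC content (51.8% against 60.5% over all) and an AP-1 match (TGANTCA) in 21.5% against 6.78%. A match is a description of letters and does not show that a factor binds there.

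Interleukin, interferon, colony-stimulating factor and TNF family genes also rose. Of 16 interleukin and interferon genes tested 10 rose and none fell (median log2 fold change 3.36, the same with the 4 genes of at most 3 control counts set to that floor). Without LPS replicate 3, 2 members fell. Il6, a driver of the acute phase response, had 0.388, 0.406, 0.267, 0.234 and 0.224 CPM in control and 25.4, 22.3, 31.4, 21 and 27.8 CPM in LPS (6.37 ± 0.27). Il23a, for the specific subunit of IL-23, had 5 counts in control and 728 in LPS, and Il1a, for interleukin 1 alpha, 6 and 1577 counts. Il1b had 3 control counts and 210, 470, 583, 217 and 189 counts in LPS replicates 1 to 5. LPS replicates 2 and 3, the libraries of higher microglia sums, held the most. The part of microglia in these rises was not tested. Of 31 colony-stimulating and growth factor genes 9 rose and 8 fell. Csf3, for the granulocyte factor G-CSF, went from 1.94 ± 0.229 to 32.4 ± 3.37 CPM (4.06 ± 0.12) and Bmp2, for a bone morphogenetic protein, from 0.504 ± 0.209 to 4.31 ± 0.568 CPM (3.09 ± 0.26). Among those that fell were Areg, Hbegf and Tgfa, 3 genes for ligands of the EGF receptor, and the vessel growth factor Vegfa. Ereg, for a further ligand of the EGF receptor, did not pass (log2 fold change -0.35, adjusted p = 0.526 in edgeR). Areg, for amphiregulin, fell from 12 ± 6.56 to 1.31 ± 0.851 CPM (-3.19 ± 0.68), Hbegf, for heparin-binding EGF-like growth factor, from 479 ± 87 to 246 ± 43.6 CPM (-0.96 ± 0.16), and Vegfa from 101 ± 27.2 to 47.4 ± 10.6 CPM (-1.09 ± 0.20). Of 9 TNF superfamily ligand genes 6 rose and none fell. Tnfsf9, the ligand of 4-1BB, went from 0.825 ± 0.332 to 9.73 ± 2.41 CPM (3.56 ± 0.32) and Tnfsf11, which encodes RANKL, from 1.03 ± 0.205 to 4 ± 1.02 CPM (1.96 ± 0.22).

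Receptor genes moved in both directions. Of 25 cytokine and chemokine receptor genes 11 rose and 4 fell. Ccrl2, for a receptor that binds chemerin without signalling, went from 1.32 ± 0.471 to 37 ± 11.4 CPM (4.81 ± 0.26) and Il15ra, which presents IL-15, from 4.76 ± 1.24 to 17.6 ± 1.76 CPM (1.89 ± 0.17). Cxcr4, the receptor of CXCL12, had 4.96, 7.67, 5.96, 9.42 and 5.77 CPM in control and 0.457, 0.542, 0.522, 1.04 and 0.351 CPM in LPS (-3.53 ± 0.35, adjusted p = 1.14e-06). Ackr3, the other receptor of CXCL12, fell from 35.4 ± 2.84 to 11.6 ± 3.05 CPM (-1.61 ± 0.18). The control and LPS ranges did not overlap for either, while Cxcl12 itself did not pass (138 to 155 CPM, log2 fold change 0.17). Il1r1, the signalling receptor of interleukin 1, fell from 43.5 ± 3.09 to 22.5 ± 3.67 CPM (-0.95 ± 0.26) and Il6ra, the IL-6 receptor, from 26.5 ± 1.02 to 14.6 ± 2.2 CPM (-0.86 ± 0.10). Of 18 TNF receptor and TRAF genes 9 rose and 4 fell (2 fell without LPS replicate 1). Cd40, a costimulatory receptor, went from 0.0979 ± 0.0532 to 4.13 ± 0.936 CPM (5.35 ± 0.39), Tnfrsf1b, for the second TNF receptor, from 6.16 ± 0.731 to 27 ± 6.84 CPM (2.13 ± 0.16), and Fas, for a death receptor, from 40.3 ± 4.72 to 95.8 ± 14.9 CPM (1.25 ± 0.13). Traf5, for an adaptor of TNF receptors, fell from 16.5 ± 1.77 to 4.65 ± 0.799 CPM (-1.82 ± 0.16).

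Genes for sensing of LPS and for signalling to NF-kB moved in both directions. Of 14 genes of the TLR4 receptor complex and its adaptors 4 rose and 2 fell (median log2 fold change 0.03). Cd14 went from 13.6 ± 3.84 to 44.3 ± 11.2 CPM (1.70 ± 0.19), Irak2, for a kinase of the MyD88 complex, from 16.2 ± 1.61 to 36.6 ± 4.21 CPM (1.18 ± 0.10), and Ticam1, which encodes TRIF, fell from 31.1 ± 2.39 to 24.1 ± 1.94 CPM (-0.37 ± 0.07). Tlr4 itself fell, while Tlr2, for the receptor of bacterial lipoproteins, rose. Tlr4 had 30.8, 33.1, 29.4, 32.9 and 28.9 CPM in control and 26.4, 20.6, 15.4, 26.3 and 16.7 CPM in LPS. Tlr2 had 8.55, 7.78, 9.14, 7.93 and 6.59 CPM and 309, 372, 434, 304 and 321 CPM (5.44 ± 0.13). For both genes the groups did not overlap, and LPS replicate 3 was the lowest LPS library for Tlr4 and the highest for Tlr2. Among 14 further pattern recognition receptors tested, 6 rose and none fell. Clec4e, for the sensor Mincle, went from 0.15 ± 0.117 to 5.88 ± 2.97 CPM (5.28 ± 0.52) and Nlrp3, for the inflammasome sensor, from 0.128 ± 0.0839 to 9.05 ± 4.54 CPM (6.12 ± 0.51). Of 12 genes of TAK1 and the IKK kinases 7 rose and 1 fell. Map3k8, for the kinase TPL-2 that activates ERK, went from 4.3 ± 0.469 to 37.9 ± 2.76 CPM (3.14 ± 0.16), while Map3k14, for the kinase NIK of the alternative NF-kB pathway, fell from 11.2 ± 0.834 to 7.37 ± 0.844 CPM (-0.60 ± 0.10).

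All 11 genes of NF-kB subunits and I-kappa-B proteins rose, with a median of 2.35, and in each the groups did not overlap (20.4% of all genes tested). The largest rises were those of Nfkbia, Nfkbie and Nfkbid, all for I-kappa-B proteins. Nfkbia, for I-kappa-B alpha, had 23, 24.1, 26.3, 22.9 and 22.3 CPM in control and 647, 707, 794, 646 and 661 CPM in LPS (4.86 ± 0.15). Nfkbie, for I-kappa-B epsilon, went from 9.14 ± 0.757 to 139 ± 25.4 CPM (3.92 ± 0.14) and Nfkbid, for a nuclear I-kappa-B protein, from 0.544 ± 0.095 to 7.68 ± 0.803 CPM (3.81 ± 0.21). Of 24 genes for brakes on inflammatory signalling 13 rose and 4 fell. Tnfaip3, which encodes A20, had 6.14 to 9.97 CPM in control and 335 to 357 CPM in LPS. Tnip3, a partner of A20, went from 0.225 ± 0.0682 to 6.53 ± 3.1 CPM (4.84 ± 0.40) and Cish, a suppressor of STAT5 signalling, from 6.66 ± 1.46 to 36.1 ± 4.01 CPM (2.44 ± 0.16). The brakes that fell included phosphatases and a pseudokinase. Dusp2, for a nuclear MAP kinase phosphatase, had 7.28, 3.09, 6.44, 7.96 and 9.08 CPM in control and 0.323, 0.217, 0.399, 1.1 and 0.827 CPM in LPS (-3.55 ± 0.44), and Trib1, which marks C/EBP proteins for degradation, fell from 132 ± 21.9 to 40.4 ± 2.75 CPM (-1.70 ± 0.10). Among 25 survival and death genes 13 rose and 2 fell. Ripk2, for the kinase downstream of NOD receptors, went from 16.4 ± 0.656 to 410.1 ± 72.7 CPM (4.65 ± 0.14), Birc3, for the inhibitor of apoptosis cIAP2, from 12.2 ± 1.75 to 87.1 ± 15.2 CPM (2.84 ± 0.13), and Casp4, for the caspase that binds LPS inside cells, from 0.588 ± 0.128 to 4.06 ± 1.55 CPM (2.78 ± 0.35).

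Of 17 C/EBP, STAT and IRF genes 10 rose and none fell, although without LPS replicate 3 a member fell. Irf1, a driver of interferon-inducible genes, had 45.5 to 92.5 CPM in control and 426 to 558 CPM in LPS, Cebpd rose from 145 ± 14.6 to 550.0 ± 83.6 CPM (1.93 ± 0.22) and Stat5a from 13.9 ± 0.241 to 47.3 ± 8.92 CPM (1.76 ± 0.11). Of 14 AP-1 genes 3 rose and 4 fell, and the family's own subunits went opposite ways. Batf, a partner of JUN in immune cells, went from 1.12 ± 0.364 to 8.21 ± 3.92 CPM (2.88 ± 0.30), Junb from 148 ± 23 to 318 ± 18.1 CPM (1.10 ± 0.11) and Fos from 24.2 ± 3.73 to 45.3 ± 10.3 CPM (0.91 ± 0.21). Fosb had 93.1, 88.1, 69.2, 103 and 105 CPM in control and 1.75, 1.63, 2.12, 3.33 and 2.23 CPM in LPS (-5.37 ± 0.43), the lowest fold change by the naming rule. That rule took only genes whose groups did not overlap. Of 17 EGR, NR4A and other immediate early genes 4 rose and 7 fell, with a median of -0.31. Ier3, an NF-kB target that protects from cell death, went from 90.7 ± 4.98 to 603 ± 20.4 CPM (2.73 ± 0.09) and Btg2, for an antiproliferative factor, from 43.1 ± 1.24 to 168 ± 11.1 CPM (1.96 ± 0.07). Arc, Npas4 and Egr3, immediate early genes known from neuronal activity, fell by 2.23, 2.20 and 1.39 on the log2 scale, and Nr4a1, for an orphan nuclear receptor, fell from 77.9 ± 23 to 38.9 ± 11.7 CPM.

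Genes for adhesion of leukocytes rose. Of 15 tested 11 rose and 2 fell. Sele, for E-selectin, had 2.79, 1.49, 0.962, 2.37 and 2.44 CPM in control and 126, 108, 126, 89.4 and 135 CPM in LPS (5.86 ± 0.24). Selp, for P-selectin, went from 0.819 ± 0.296 to 31.4 ± 7.94 CPM (5.25 ± 0.25). Both selectins are best known from endothelium, whose marker list summed to 284 to 314 CPM in control and 276 to 335 CPM in LPS, with Cldn5 at 0 counts in control and 3 in LPS. Of 7 endothelial markers tested 1 rose, the VEGF receptor gene Flt1 (10.6 ± 2.18 to 22.9 ± 4.66 CPM, 1.12 ± 0.17), and 2 rose with the replicate block or without control replicate 4 or LPS replicate 5. The part of endothelial cells in these rises was not tested. Icam1, the ligand of leukocyte integrins, had 91.5 to 132 CPM in control and 1526 to 2470.3 CPM in LPS (4.17 ± 0.24). Cd274, which encodes the checkpoint ligand PD-L1, went from 2.74 ± 0.521 to 21.2 ± 4.8 CPM (2.94 ± 0.18). Pdpn, for podoplanin, and Jam2, for a junction protein, fell by 0.24 and 0.31 on the log2 scale.

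Among interferon-inducible genes the GTPase families rose throughout. All 17 genes tested of the guanylate-binding proteins and immunity-related GTPases rose, with a median of 2.20, and 15 of them did so without LPS replicates 2 and 3. Many members are near-identical copies, among them Tgtp1 and Tgtp2, so that reads may be split between them. Gbp5 had 1.01, 1.44, 1.44, 1.43 and 0.925 CPM in control and 112, 159.9, 227, 102 and 109 CPM in LPS (6.83 ± 0.33). Gbp4 went from 0.639 ± 0.167 to 17.1 ± 9.35 CPM (4.73 ± 0.44) and Gbp6 from 8.83 ± 1.88 to 66.9 ± 36.1 CPM (2.92 ± 0.36). LPS replicate 3 was highest for Gbp5, and the list summed to 2023 CPM there against 1026 CPM in LPS replicate 4. Of 30 interferon-stimulated genes 9 rose and none fell (median 0.44), with 5 that rose without LPS replicates 2 and 3 and 14 with only the 10 libraries. Rsad2, which encodes the antiviral enzyme viperin, had 4.52, 1.82, 1.42, 1.49 and 1.18 CPM in control and 26.9, 44, 43.8, 23.5 and 27.9 CPM in LPS (3.98 ± 0.33). Parp14 went from 12.9 ± 2.61 to 99.4 ± 26.7 CPM (2.94 ± 0.19) and Oasl1 from 0.862 ± 0.527 to 4.04 ± 1.85 CPM (2.22 ± 0.39), while Isg15 did not pass (51.9 to 85.1 CPM, adjusted p = 0.171). Of 19 MHC class I and immunoproteasome genes 11 rose and none fell (median 0.50), such as Psmb8 from 14.3 ± 3.33 to 31.8 ± 9.58 CPM (1.15 ± 0.25) and H2-Q4, which has close copies, from 15.2 ± 2.68 to 37.5 ± 13.3 CPM (1.30 ± 0.23). MHC class II genes were near the lower end of detection, with a summed level of 15.4 CPM in control and 16.7 CPM in LPS, and 1 of 6 rose, the invariant chain gene Cd74 (0.608 ± 0.279 to 2.24 ± 1.15 CPM).

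For Gbp5 and Rsad2, of the GTPase and the interferon-stimulated lists, an element of the kind bound by IRF proteins stood before the start of transcription. The RefSeq stretches on GRCm38.p6 are 5′ to 3′ on the strand of the gene, and the capitals mark the match to GAAANNGAAA, here read on the opposite strand. Gbp5 is on the plus strand (chr3:142496739-142496818, 165 bases before the start) and Rsad2 on the minus strand (chr12:26456523-26456602, 120 bases before).
Gbp5: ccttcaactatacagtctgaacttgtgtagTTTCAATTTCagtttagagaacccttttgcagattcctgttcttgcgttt
Rsad2: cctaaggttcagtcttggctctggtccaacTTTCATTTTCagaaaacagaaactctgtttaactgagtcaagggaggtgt
This motif was found on either strand in 3.66% of the promoters of tested genes, in 9.23% (6 of 65) for genes raised at least 8-fold and in 9.54% for genes raised 2-fold to 8-fold.

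Several genes that rose lie side by side in the genome. On GRCm38.p6, runs of 3 or more neighbouring tested protein-coding genes raised at least 4-fold were found at 4 places with 17 genes in all. Cxcl5, Cxcl3, Cxcl1 and Cxcl2 form a run at chr5:90759298-90905938. Ccl2, Ccl7 and Ccl8 lie at chr11:82035577-82447621 together with Tmem132e, for a transmembrane protein that is no chemokine, which went from 0.833 ± 0.297 to 25.2 ± 4.67 CPM (4.91 ± 0.32). The guanylate-binding protein genes hold the other runs, Gbp5, Gbp7, Gbp3 and Gbp2b at chr3:142496934-142619179 and Gbp8, Gbp9, Gbp4, Gbp10 and Gbp6 at chr5:105012513-105295871. Gbp8 was not called without control replicate 1 or 5 or LPS replicate 3 (adjusted p of 0.0513 to 0.0804) or by limma (0.0522). Of 171 placed genes raised at least 4-fold, 35 (20.5%) had a neighbour that was also raised, as did 2.39% of all 13705 placed genes. Genes within these families arose by duplication and their members are not independent.

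Enzymes of nitric oxide, itaconate and prostaglandin synthesis rose in 8 of 18 cases, and 3 fell. Ptgs2, for the inducible cyclooxygenase, had 125 to 255 CPM in control and 595 to 1146 CPM in LPS (2.26 ± 0.59), and Slc7a2, which takes up the arginine that nitric oxide synthase uses, went from 108 ± 10.1 to 381 ± 34.5 CPM (1.82 ± 0.11). Ptgs1, the constitutive cyclooxygenase, fell from 37.9 ± 4.52 to 20.7 ± 2.63 CPM (-0.87 ± 0.10). Of 21 acute phase and iron genes 8 rose and 3 fell, but 1 fell without control replicate 2 or 3 or LPS replicate 1 or 2, and none without LPS replicate 5. Saa3, a serum amyloid protein made locally, had 0.878, 1.6, 0.935, 0.702 and 1.35 CPM in control and 29, 60.7, 73.5, 30.8 and 29.8 CPM in LPS (5.35 ± 0.38). Steap4, for a metalloreductase, went from 20.1 ± 3.88 to 132 ± 57.9 CPM (2.71 ± 0.34). Among 18 complement genes 2 rose and 1 fell (median 0.07), beside 13.8% and 9.82% of all genes tested. Without LPS replicate 3, 3 fell, and 1 rose without control replicate 1, 2, 3 or 5 or LPS replicate 1 or 2. C3, the central component, had a mean of 515 CPM in control and 516 CPM in LPS (log2 fold change 0.00, adjusted p = 0.999 in edgeR). The list summed to 1044 to 1474 CPM in control. In LPS it summed to 1825 CPM in replicate 3 and to 852 to 1162 CPM in the other libraries. Without LPS replicate 3 the median of the list was -0.34, so equal means of C3 do not show equal libraries. Of 21 oxidative defence genes 3 rose and 3 fell, beside 13.8% and 9.82% of all genes tested. Without control replicate 2 or 3 or LPS replicate 1, 1 fell. Those that rose included the mitochondrial superoxide dismutase gene Sod2 from 88.2 ± 4.21 to 175 ± 28.3 CPM (0.99 ± 0.09) and Ncf1, for a subunit of the phagocyte NADPH oxidase, from 0.931 ± 0.437 to 4.05 ± 2.18 CPM (2.12 ± 0.42). Ncf1 and Cybb, genes of that oxidase, are best known from phagocytes, and their levels were highest in LPS replicate 3 (6.82 and 12.4 CPM), the LPS library of highest microglia sum. The part of microglia in the rise of Ncf1 was not tested.

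Genes for remodelling of the matrix rose in part. Of 20 proteases and inhibitors 9 rose and 1 fell. Adamts4, for an aggrecanase, went from 9.23 ± 1.43 to 142 ± 17.5 CPM (3.94 ± 0.22), Mmp13, for a collagenase, from 13.5 ± 2.63 to 45.5 ± 20 CPM (1.75 ± 0.27) and Timp1, an inhibitor of matrix metalloproteinases, from 165 ± 33.5 to 349.9 ± 26.9 CPM (1.09 ± 0.13). Of 25 glial scar and matrix genes 6 rose and 2 fell, beside 13.8% and 9.82% of all genes tested. When any library but control replicate 1 and LPS replicate 3 was left out, 1 fell. Ptx3, for the soluble pattern recognition protein pentraxin 3, had 157 to 193 CPM in control and 573 to 941 CPM in LPS (2.08 ± 0.29), and the basement membrane genes Hspg2, for perlecan, and Lama5, for a laminin chain, rose by 0.70 and 0.64 on the log2 scale. Col1a1 did not pass (1331 to 1834 CPM, adjusted p = 0.196).

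**Figure D4:**
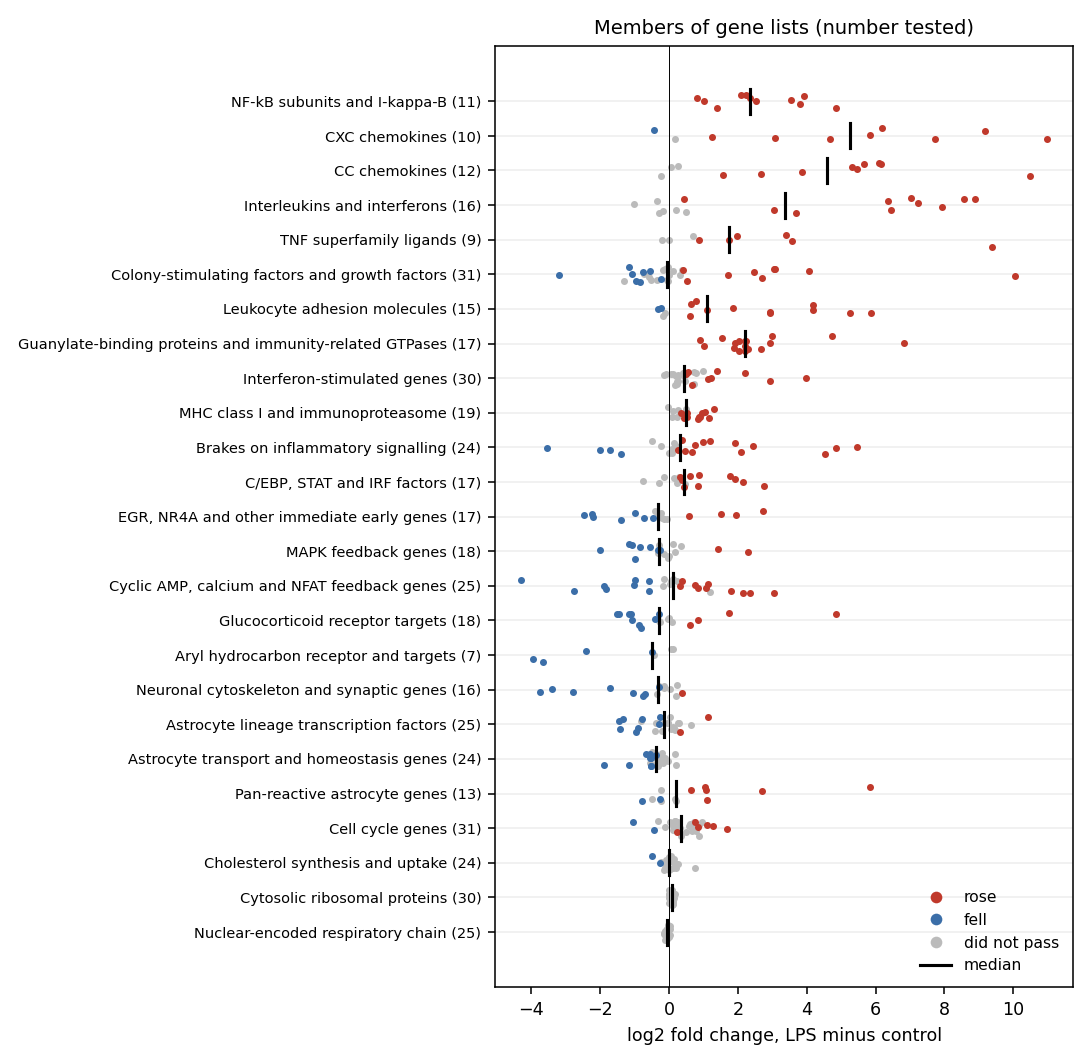
Log2 fold change of every tested member of 25 gene lists (red, rose; blue, fell; grey, did not pass; black bar, median), with the number tested in brackets. The NF-kB, chemokine, interleukin and GTPase lists lie to the right with medians of 2.20 to 5.27. The median is -0.31 for the immediate early list. It is -0.15 for astrocyte lineage factors, -0.39 for astrocyte transport and homeostasis and 0.21 for the pan-reactive list.

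Where the groups did not overlap and the mean reached 5 CPM, the 20 genes lowest by fold change were Fosb, Nfatc2, Ahrr, Nptx1, Cyp1a1, Nefl, Tbc1d30, Areg, Tac1, Nefm, Rgs2, Lmcd1, Tiparp, Fam110c, Arc, Ppp1r3c, Dusp5, Arrdc3, Mnt and Gja4. Nfatc2, for a transcription factor that calcineurin activates, had 50, 51.4, 46.7, 55 and 50.3 CPM in control and 2.26, 2.71, 3.69, 2.4 and 1.93 CPM in LPS (-4.29 ± 0.17, adjusted p = 1.38e-11). Its relative Nfatc4 fell from 73.9 ± 3.6 to 36.3 ± 2.41 CPM (-1.03 ± 0.11). Rgs2, a brake on G-protein signalling, had 17.6, 16.8, 15.2, 19.1 and 20.3 CPM and 2.34, 2.58, 2.52, 2.74 and 2.83 CPM (-2.77 ± 0.18). The genes of the family did not move together: Rgs16, for a brake of the same kind, had 58.7 to 139 CPM in control and 635 to 872 CPM in LPS (3.04), and Rgs4 rose from 5.91 ± 1.28 to 30 ± 14 CPM (2.34 ± 0.27). In the list of cyclic AMP, calcium and NFAT feedback genes 10 of 25 rose and 8 fell. Adrb1, for an adrenoceptor that raises cyclic AMP, fell by 1.84 on the log2 scale, and Pde4b, for the phosphodiesterase that degrades cyclic AMP, rose from 55.8 ± 9.18 to 194 ± 43.9 CPM (1.80 ± 0.14). Of 18 MAP kinase feedback genes 2 rose and 8 fell, with Dusp5, for an ERK phosphatase, at 66.5 to 138 CPM in control and 19.5 to 34.9 CPM in LPS, and Spry1, for a brake on growth factor receptors, higher at 3.39 ± 0.775 to 16.6 ± 3 CPM (2.29 ± 0.30).

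**Figure D5:**
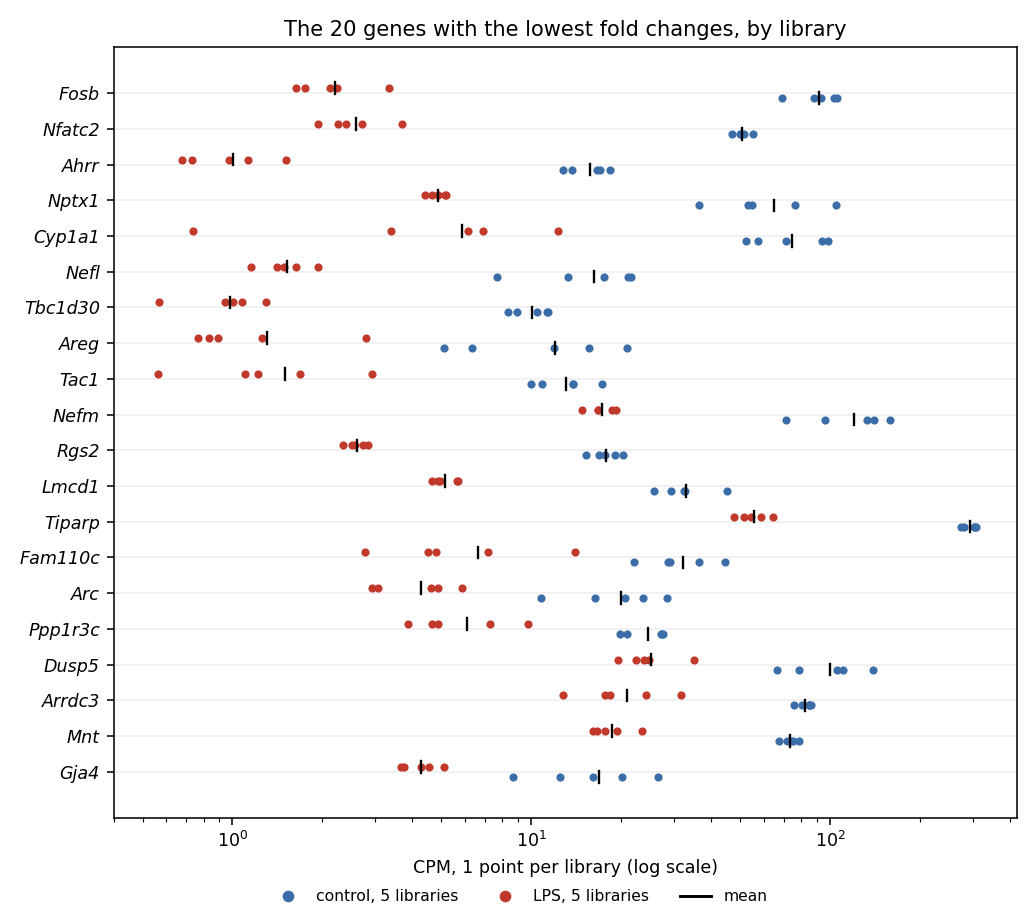
CPM of the 20 genes with the lowest fold changes in each control (blue) and LPS (red) library on a log scale, with the mean as a bar. The genes were picked from those whose groups do not overlap, and Cyp1a1 spreads most among the LPS libraries, from 0.738 to 12.2 CPM.

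Of 7 genes of the aryl hydrocarbon receptor group tested, 4 fell and none rose. The receptor binds planar aromatic compounds and induces cytochromes P450 together with its own repressors. Ahrr, for the repressor, had 17, 13.7, 16.6, 12.8 and 18.3 CPM in control and 1.51, 0.976, 0.676, 0.734 and 1.13 CPM in LPS (-3.95 ± 0.23). Tiparp, for a further repressor, had 280.0, 302, 274, 305 and 308 CPM and 58.8, 51.6, 47.5, 64.5 and 54.4 CPM (-2.41 ± 0.15). Separation of the groups was a condition for both genes and for Cyp1a1, which are among the 20 lowest by fold change. Cyp1a1, for the best known target enzyme, had 93.6, 57.2, 71, 52 and 98.5 CPM and 6.16, 3.39, 0.738, 12.2 and 6.86 CPM (-3.66 ± 0.58). Among its LPS libraries, replicate 3 was lowest and replicate 4 highest. Cyp1b1, for a related enzyme, fell by 0.51 on the log2 scale from 773 ± 45.3 to 545 ± 42.5 CPM, and the receptor gene Ahr did not pass (16.8 to 12.5 CPM, adjusted p = 0.112). The promoter stretches of Ahrr and Cyp1a1 are shown because the receptor is known to bind the core element GCGTG. They are from RefSeq on GRCm38.p6, 5′ to 3′ on the strand of the gene, and the capitals mark GCGTG. Ahrr is on the minus strand (chr13:74292332-74292468, matches starting 107, 82 and 27 bases before the start) and Cyp1a1 on the plus strand (chr9:57697529-57697603, 54 bases before).
Ahrr: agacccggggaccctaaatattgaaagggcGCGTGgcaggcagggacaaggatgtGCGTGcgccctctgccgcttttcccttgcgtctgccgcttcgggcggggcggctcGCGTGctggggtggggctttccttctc
Cyp1a1: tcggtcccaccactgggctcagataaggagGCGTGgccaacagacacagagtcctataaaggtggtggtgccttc
The core is short and common: on either strand it was found in 53.9% of the promoters of tested genes, in 65.6% (21 of 32) for genes lowered at least 4-fold and in 36.9% (24 of 65) for genes raised at least 8-fold.

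Genes of glucocorticoid signalling and of neurons fell more often than they rose. Of 18 glucocorticoid receptor targets 9 fell and 4 rose, with a median of -0.29, and 1 of the 4 is Nfkbia, which is also an NF-kB target. Sgk1, for a kinase of ion transport, had 430.2 to 711 CPM in control and 98.5 to 276 CPM in LPS (-1.46 ± 0.23). Per2, a clock gene, fell from 18.6 ± 1.27 to 6.53 ± 1.47 CPM (-1.51 ± 0.16), Errfi1, for an inhibitor of the EGF receptor, from 147 ± 54.7 to 65.3 ± 3.76 CPM (-1.17 ± 0.19), while Angptl4, for an inhibitor of lipoprotein lipase, rose from 9.82 ± 2.92 to 33.1 ± 6 CPM (1.75 ± 0.24). Of 16 neuronal cytoskeleton and synaptic genes 8 fell and 1 rose (median -0.33). Nefm, for a neurofilament chain, had 132, 71, 95.6, 140.1 and 159 CPM in control and 16.7, 19.2, 14.8, 18.5 and 16.7 CPM in LPS (-2.80 ± 0.18). Nptx1, for a secreted pentraxin of synapses, had 76.4, 36.3, 54.6, 53.1 and 105 CPM and 4.41, 5.15, 4.89, 5.19 and 4.66 CPM (-3.74 ± 0.22). The fall was not shared by the neuronal marker list, which summed to 577 to 609.9 CPM in control and 518 to 670.3 CPM in LPS and in which 1 of 7 tested fell. Rbfox3, the marker of mature neurons, had 2 counts in control and 1 in LPS.

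Astrocyte genes fell, and how many depended on LPS replicate 3. Of 14 astrocyte markers 7 fell and none rose (median -0.53), and without LPS replicate 3 the number was 12. Of 24 genes of astrocyte transport and homeostasis 9 fell, and 18 without that library. Ependymal markers, of ciliated cells that line the ventricles, summed to 96.2 to 125 CPM in control and 58.3 to 102 CPM in LPS, and 3 of 5 fell (5 without LPS replicate 3, 1 without LPS replicate 1). Sox9, the factor that specifies glia, had 177, 196, 191, 197 and 205 CPM in control and 62.6, 77.3, 86.4, 67.9 and 56.2 CPM in LPS (-1.46 ± 0.12), with every LPS library, replicate 3 included, below the control range. Gfap, the intermediate filament of reactive astrocytes, had 3570.2, 4122, 3868, 4927 and 3598 CPM in control and 2211, 3127, 4411, 2239 and 2257 CPM in LPS and did not pass (-0.50 ± 0.18, adjusted p = 0.058), LPS replicate 3 lying within the control range. Gfap did pass by DESeq2 (adjusted p = 0.0288), by limma (0.0357), and in edgeR without LPS replicate 3 (0.0014), scaled by totals alone (0.0373) and with the replicate block (0.0143). Gja1, for connexin 43, fell from 912 ± 70.8 to 573 ± 115 CPM (-0.67 ± 0.16), and Gjb2, for connexin 26, from 8.49 ± 3.45 to 2.29 ± 0.621 CPM (-1.89 ± 0.44). Among 25 astrocyte lineage factors 8 fell and 2 rose (1 rose when any library but control replicate 2 and LPS replicates 4 and 5 was left out). Hes1, for the effector of Notch, fell from 40.9 ± 4.79 to 15.2 ± 2.43 CPM (-1.43 ± 0.13) and Id4 from 76.7 ± 9.76 to 30.3 ± 6.14 CPM (-1.34 ± 0.18), while Id3, a relative of Id4, rose from 224 ± 11.1 to 490.1 ± 48.7 CPM (1.13 ± 0.13). Of 26 WNT, Notch and hedgehog genes 4 rose and 8 fell (5 fell without control replicate 2 or LPS replicate 1, 4 or 5). The fall of Hes1 went with that of Notch1 (71.1 ± 6.13 to 46.8 ± 2.27 CPM, -0.61 ± 0.08) and of Lfng, a modifier of Notch (25.2 ± 1.2 to 12.8 ± 1.35 CPM, -0.97 ± 0.17), and with a rise of the ligand gene Dll1 (0.613 ± 0.18 to 2.38 ± 0.339 CPM, 1.95 ± 0.22).

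The gene sets used to name reactive astrocyte states were mixed. Of 13 pan-reactive genes 6 rose and 2 fell, of 12 A1-type genes 5 rose and 1 fell, and of 11 A2-type genes 3 rose and 3 fell. With 1 library left out, 1 to 3 pan-reactive genes fell (1 without any of control replicates 2, 3 and 4 and LPS replicates 1, 2, 4 and 5), 3 A1-type genes rose without control replicate 2, 3 or 5 or LPS replicate 2 or 3, and 5 A2-type genes fell without LPS replicate 3. Without LPS replicates 2 and 3 together the pan-reactive genes split 4 to 4, the A1-type genes 3 higher to 2 lower and the A2-type genes 4 to 5. Among the A1 genes Gbp2 went from 85.1 ± 14.4 to 320.3 ± 98.6 CPM (1.91 ± 0.27) and Ggta1 fell from 107 ± 12.3 to 62.5 ± 9.67 CPM (-0.78 ± 0.19). C3, the complement gene often used as the A1 marker, was at a log2 fold change of 0.00 with all 5 LPS libraries in the fit. Among the A2 genes Ptgs2, Ptx3 and Cd14 rose, as given above, and Emp1, for a membrane protein, fell from 583 ± 108 to 306 ± 75.9 CPM (-0.93 ± 0.17). Of the pan-reactive genes S1pr3, for a sphingosine phosphate receptor, rose from 234 ± 33.7 to 500.0 ± 177 CPM (1.10 ± 0.30), a call lost without LPS replicates 2 and 3 (adjusted p = 0.0879), and Vim, for vimentin, fell from 7701 ± 265 to 6360.1 ± 222 CPM (-0.28 ± 0.06).

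None of 30 cytosolic ribosomal protein genes and none of 25 nuclear-encoded respiratory chain genes changed in edgeR, with medians of 0.08 and -0.05. At unadjusted p under 0.05 the numbers were 0 and 4. DESeq2 and limma each called 0 ribosomal and 1 respiratory chain gene, and without LPS replicate 3 edgeR called 1 and 3. Of 24 cholesterol synthesis and uptake genes 2 fell and none rose, beside 9.82% and 13.8% of all genes tested. Those that fell included Insig1, a brake on sterol synthesis (281 ± 21.1 to 199.6 ± 17.1 CPM, -0.49 ± 0.07). Without LPS replicate 3, 3 members rose. Ch25h, for the enzyme that makes 25-hydroxycholesterol, had 2.61, 1.41, 3.18, 2.96 and 1.32 CPM in control and 52.9, 72.3, 70.5, 45.2 and 50.5 CPM in LPS (4.66 ± 0.35). Among 15 sterol efflux and lipid scavenging genes 3 rose and 2 fell, and none fell without control replicate 4 or LPS replicate 1 or 5 and 1 without control replicate 1 or 5 or LPS replicate 4. Of 24 glycolysis and hypoxia genes 6 fell and 1 rose (3 fell without LPS replicate 1). Of 21 amino acid transport and ATF4 genes 2 rose and 2 fell, beside 13.8% and 9.82% of all genes tested. With a library left out 1 to 3 rose and 1 to 4 fell, the 4 without LPS replicate 3. Slc2a1, for the glucose transporter GLUT1, had 268, 196, 237, 255 and 339.8 CPM in control and 126, 126, 119, 153 and 113 CPM in LPS (-1.02 ± 0.19), and Hif1a, for the hypoxia factor, rose from 136 ± 6.7 to 173 ± 16.5 CPM (0.35 ± 0.08). Transcripts of the 13 genes of the mitochondrial genome took 2.66 ± 0.12% of counts in control and 2.05 ± 0.30% in LPS, and 2 of them fell, ND4 and CYTB, whose reads may be shared with nuclear copies. The log2 fold changes of all 13 were below 0 (median -0.38), and 4 were called lower by DESeq2, 6 with the replicate block and 7 with only the 10 libraries.

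Of 20 potassium channel genes 1 rose and 2 fell, against 13.8% and 9.82% of all genes tested. Without LPS replicate 3, 7 fell, without control replicate 1 or 3 or LPS replicate 1 only 1 did, and 2 rose without control replicate 1. Of 31 cell cycle genes 6 rose and 2 fell, with a median of 0.35, and 15 rose without LPS replicate 3. Cdk6, for a kinase of the G1 phase, had 18.3 to 21.2 CPM in control and 57 to 72.6 CPM in LPS (1.70 ± 0.10), and Cdkn1a, for the inhibitor p21, rose too (509 ± 51.4 to 903 ± 123 CPM, 0.83 ± 0.10). Of 22 chromatin and DNA methylation genes 6 rose and 3 fell. Tet3, which oxidises methylated cytosine, fell from 41.1 ± 1.16 to 14.3 ± 0.964 CPM (-1.52 ± 0.08) and Dnmt3a, which methylates it, rose from 18.5 ± 0.84 to 31.4 ± 3.8 CPM (0.76 ± 0.09). Among 16 long noncoding and miRNA host genes 6 rose and 1 fell. Neat1, the scaffold of nuclear paraspeckles, fell from 215 ± 21.9 to 105 ± 26.4 CPM (-1.03 ± 0.14). Mir155hg, the host transcript of miR-155, had 0.0517, 0.0813, 0.134, 0.0585 and 0.252 CPM in control and 2.8, 3.9, 2.86, 3.02 and 2.35 CPM in LPS (4.66 ± 0.39), low in every control library and higher in every LPS library. The library kit measured the host transcript, not the mature miRNA. The products of the hairpin, from RefSeq on GRCm38.p6, are shown with the seed (bases 2 to 8) in capitals, at chr16:84714143-84714165 and chr16:84714182-84714202 on the plus strand.
miR-155-5p: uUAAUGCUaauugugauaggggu
miR-155-3p: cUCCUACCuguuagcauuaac

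Over 10784 genes at 5 CPM or more, the median SD of log2 CPM was 0.136 in LPS and 0.0954 in control, and the SD was larger in LPS for 73.9% of them. For the 52 genes at this level raised at least 8-fold the order was the reverse, with 0.265 in LPS and 0.403 in control. These genes were picked by their rise, and some, such as Tnf, were near 0 in control, where counting error alone widens the SD. The reverse order is therefore no result about their spread. Of the 97 genes raised at least 8-fold, 59 (60.8%) had LPS replicates 2 and 3 as the 2 highest, against 20.1% of all genes tested. These libraries also had the highest microglia sums of the group, and the part of microglia was not tested. The largest spread among changed genes at 5 CPM or more was that of Cyp1a1, Mmp10, Fgf10, Tinagl1, Serpinb9b, Coch, Fam110c and Tac1. Tinagl1, for a matrix protein, had 173, 68.4, 35.4, 141 and 176 CPM in LPS replicates 1 to 5 and 32.4 to 64.9 CPM in control. Serpinb9b, for a serpin, had 145, 78.6, 31.2, 156 and 113 CPM and 18.5 to 46.2 CPM. In both, LPS replicate 3 lay within the control range and the other LPS libraries above it. Mmp10, for a stromelysin, had 3.79, 9.79, 4.36, 22.8 and 2.98 CPM in LPS, with LPS replicate 4 highest, and its call was lost without control replicate 1, 2, 3 or 4 or LPS replicate 2 or 4 (adjusted p of 0.0615 to 0.129), by limma (0.0648), without the low-count filter (0.11) and with the replicate block (0.0803). Fgf10, for a growth factor of epithelia, had 19.7, 7.97, 2.95, 14.1 and 12.6 CPM in LPS, and its call was lost without control replicate 2, 3, 4 or 5 or LPS replicate 1, 4 or 5 (adjusted p of 0.0541 to 0.116), by limma (0.116), without the filter (0.0915), with only the 10 libraries (0.0553) and with the block on these (0.0639).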

How the data were processed

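Polyadenylated RNA of primary mouse astrocytes was sequenced in 15 libraries. Per the file headers, the authors deposited unnormalized counts and FPKM for each symbol. The submitters' processing notes name GRCm38 and mm10, but no source used here names an aligner, a counter or a strand setting. FPKM equalled count over length and total within a relative deviation of 7.22e-10, and its 37 rows with damaged symbols were not used. Total counts were 34.2 to 41.76 M per library of the LPS and control groups, and 25748 symbols were listed. Counting intervals cover counting error only.

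edgeR 4.0.16 (R 4.3.3) fitted all 15 libraries by group with TMM factors and filterByExpr, leaving 15362 genes, and the quasi-likelihood test compared LPS with control, with Benjamini-Hochberg adjustment. Its result was called at adjusted p under 0.05. Tested on simulated data for this comparison (15039 genes, 100 made different per size), it recovered 89 genes of 2-fold and 61 of 1.5-fold difference with 8 false calls. The simulated differences were placed only in genes of higher counts, and all libraries of a group shared the same expected level. The recovery therefore does not cover genes of low counts or a library that deviates from its group. CPM used TMM-scaled totals, and values are means ± SD with n = 5, log2 fold changes ± SE. Of 1022 symbols in 57 lists 1011 were found, 2 by synonym, and the other 11 were not analysed here.

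Named genes were the 12 highest and 20 lowest fold changes at 5 CPM or more without overlap, the 10 largest CPM changes each way, 8 genes near 0 in control, up to 4 of each list in each direction at 1 CPM or more, 2 without a call, and the 8 of largest spread. Genes of marker lists and of neighbouring runs, Ahr, C3, Cxcl12, Ereg, Gfap, Isg15, Nfatc4 and Tgfa were named after their values were seen. Members and lists were chosen with earlier results of these data known. A few results are not reported here. Promoters and miRNA sequences are RefSeq's. Alternatives were DESeq2 1.42.0, limma 3.58.1, other scaling, no filter, only the 10 libraries, a replicate term, and libraries left out.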

Additional observations from a re-analysis of the deposited data

Results flagged for a closer look

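In 402 groups of 5 values, 25 held a value whose gap to the nearest other exceeded 0.71 of the group's range, which chance gives in about 1 in 20 groups. Among summed markers, the microglia list stood at 255.8 CPM in control replicate 4, against 137.9 to 156.3 CPM in the other control libraries. The same library was high for Cybb (6.15 CPM), Mrc1 (0.761 CPM), Tnf (0.234 CPM), Csf3 (2.34 CPM) and Gja1 (1035 CPM), and low for Cxcl1 (6.94 CPM) and Nfkbid (0.381 CPM). LPS replicate 3 was high for Gbp8 (2.40 CPM), Il12b (3.66 CPM), Il6ra (18.5 CPM), Notch1 (50.6 CPM) and Rgs4 (54.9 CPM, against 22.4 to 26.9 CPM in the other LPS libraries). LPS replicate 4 was high for Areg (2.79 CPM), Cxcr4 (1.04 CPM), Nr4a1 (59.8 CPM) and Vegfa (65.7 CPM, against 38.3 to 45.1 CPM), all of them genes that fell. LPS replicate 2 was low for Bmp2 (3.31 CPM). In the other control libraries, replicate 1 was high for Rsad2 (4.52 CPM), Il23a (0.103 CPM) and Il12b (0.0258 CPM, a single count), replicate 2 for Il6ra (28.3 CPM), and replicate 5 for Bmp2 (0.869 CPM) and Npas4 (12.1 CPM), while replicate 3 was low for Btg2 (40.95 CPM).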

How the results depend on the processing

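The alternatives were DESeq2, limma voom, RLE factors, library size only, no low-count filter, the fit of only the 10 libraries and the replicate terms. Further settings left out 1 library, or LPS replicates 2 and 3. Across these settings, none of 193 named genes reversed its direction where it was called in the reported fit or the alternative. Sign changes of genes called in neither were not counted. The number of changed genes was 3635 in the fit reported, 4169 by DESeq2, 3136 without the filter and 4521 with only the 10 libraries, and ran from 2847 (without LPS replicate 1) to 4440 (without LPS replicate 3) with 1 library left out. All 97 genes raised at least 8-fold were called higher under each of these settings, and 92 to 97 of them stayed at 8-fold. Of the 44 genes lowered at least 4-fold, 40 to 44 were called lower. Genes whose groups did not overlap numbered 3132, 3309 to 4665 with 1 library left out and 5991 without LPS replicates 2 and 3, where fewer libraries leave fewer chances to overlap. Genes with almost no counts in control numbered 19, and 40 when up to 10 control counts were allowed. Same-numbered libraries did not deviate together (r of 0.155, -0.068, -0.029, -0.222 and -0.010 for replicates 1 to 5), so the number is not treated as a pairing. With the replicate block 4113 genes changed, and 4036 with the block on only the 10 libraries. Fitted on only the 10 libraries, Ahr (adjusted p = 0.00695) and Col1a1 (0.00801) were also called, and without the filter S1pr3 (0.0531), Tinagl1 (0.0534), Mmp10 (0.11) and Fgf10 (0.0915) were not. By limma Fgf10 (0.116), Mmp10 (0.0648) and Gbp8 (0.0522) were not called. Mrc1 was not called without LPS replicates 2 and 3 (0.0626). Over the 250 bases before the start alone, the kB match was in 10.8% of all promoters and in 43.1% for genes raised at least 8-fold. Counts limit what can be said of genes near 0 in control.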
